A study of Mus musculus with 3 samples.

Results

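Dendritic cells sample antigen in tissues, carry it to lymphnodes and present it to T cells, and the genes described here are 10 that tell their subsets apart: Flt3, Zbtb46, Itgax, Xcr1, Batf3, Cd209a, Sirpa, Cd207, Fscn1 and Siglech. They were chosen by name, as the entries whose gene symbol equals one of these, and they are 10 of the 48568 symbols measured. The rule uses no measured value, though the list was drawn up with earlier results of these data known. Each symbol had 1 entry in each of the 2 tables, and all 10 were above 0 in every library.

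The samples were whole popliteal lymphnodes of untreated C57Bl/6 mice aged 5 months, and the study asked whether nodes of females and males differ in expression of genes bearing on cell recruitment, and what extra Sry does. There was 1 library of pooled RNA per group: wildtype females (6 mice), SryHi males (3 mice) and wildtype males (6 mice). SryHi males are XY males of the FCG line, a core genotype model in which the Y chromosome lacks its own Sry, the testis-determining gene, and a multicopy Sry transgene on an autosome replaces it. Transgene, missing native gene and breeding line therefore differ together between SryHi and wildtype males and cannot be told apart. With 1 library per group there is no measure of variation between mice and no test between groups. Every difference below compares these libraries only, and the wildtype males are shared by both comparisons.

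Values are FPKM, read fragments scaled to the length of the transcript and to the size of the library. Depth, estimated from the step in FPKM that 1 fragment makes, came to roughly 6.0e+06 fragments for females, 5.7e+06 for SryHi males and 6.2e+06 for wildtype males. From it the fragments behind each value were estimated, which gives the 95% intervals printed below. These intervals rest on an approximate depth and on 1 main transcript per gene, and they cover counting error only. The libraries bore out their labels: Sry was at 20.8 FPKM in SryHi males and was listed at 0 in wildtype females and in wildtype males, and Xist, the X-inactivation RNA, was at 395 FPKM in females, 0.139 FPKM in SryHi males and 0.233 FPKM in wildtype males. The other cells of a whole node also differed between libraries. The 11 neutrophil markers summed to 56.5 FPKM in females and 90.1 FPKM in SryHi males, against 359 FPKM in wildtype males. The median log2 ratio of the 9 T cell markers was 0.42 for females over wildtype males and -0.46 for SryHi males over wildtype males.

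FLT3 is the receptor that drives dendritic cell development when its ligand binds, and ZBTB46 is a transcription factor that marks the conventional lineage. Conventional cells divide into type 1 (cDC1), which need the transcription factor BATF3, bear the chemokine receptor XCR1 and present antigen to CD8+ T cells, and type 2 (cDC2), which bear SIRPα and in part the lectin CD209a and present mainly to CD4+ T cells. Langerhans cells of the epidermis and some cDC1 carry langerin (CD207), cells that mature and migrate to a node switch on the actin-bundling protein fascin (FSCN1), and plasmacytoid dendritic cells, the specialised producers of type I interferon, bear SIGLEC-H. The integrin chain CD11c (ITGAX) is shared by most of them and by some macrophages.

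BATF3 binds DNA as a pair with JUN proteins, so the RefSeq windows around the members' starts (build GRCm38.p6, 250 bases before to 50 bases after the start) were searched on both strands for the AP-1 letters TGANTCA, where JUN pairs bind, and for the related cyclic AMP response element TGACGTCA. Windows were matched for 9 of the 10 members, all but Sirpa. The motifs were chosen with earlier results and with the sequences in view. TGANTCA was present in 3 of the 9 windows, those of Zbtb46 (starting 61 bases before the start), Itgax (56 bases before) and Cd207 (7 bases before), against 7.81% of all 32851 windows. TGACGTCA was present in the Fscn1 window, 45 bases before the start, against 1.79% of all windows. A match is a description of letters and not evidence that a factor binds there. The windows below are those with either motif, in capitals, and that of Xcr1, the member with the largest ratio in SryHi males, whose window held neither. In Zbtb46 the letters CACCTG, an E-box found in 20.2% of all windows, are also in capitals. They are written 5′ to 3′ along the gene. The Zbtb46 window lies at chr2:181424339-181424638 (minus strand), inside the gene as GENCODE draws it, the Itgax window at chr7:128129300-128129599 (plus strand), the Cd207 window at chr6:83677808-83678107 (minus strand), the Fscn1 window at chr5:142960105-142960404 (plus strand) and the Xcr1 window at chr9:123861980-123862279 (minus strand).
Zbtb46: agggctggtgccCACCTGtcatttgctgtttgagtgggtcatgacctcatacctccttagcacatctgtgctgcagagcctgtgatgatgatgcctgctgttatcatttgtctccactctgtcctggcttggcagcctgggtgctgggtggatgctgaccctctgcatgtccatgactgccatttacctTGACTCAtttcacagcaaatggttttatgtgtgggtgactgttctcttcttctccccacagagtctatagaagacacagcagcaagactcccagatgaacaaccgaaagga
Itgax: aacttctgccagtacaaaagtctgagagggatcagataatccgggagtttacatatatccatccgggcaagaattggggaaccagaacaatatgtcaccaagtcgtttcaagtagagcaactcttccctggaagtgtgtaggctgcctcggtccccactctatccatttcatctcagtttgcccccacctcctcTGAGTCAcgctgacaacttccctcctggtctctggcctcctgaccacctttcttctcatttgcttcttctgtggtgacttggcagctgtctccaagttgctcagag
Cd207: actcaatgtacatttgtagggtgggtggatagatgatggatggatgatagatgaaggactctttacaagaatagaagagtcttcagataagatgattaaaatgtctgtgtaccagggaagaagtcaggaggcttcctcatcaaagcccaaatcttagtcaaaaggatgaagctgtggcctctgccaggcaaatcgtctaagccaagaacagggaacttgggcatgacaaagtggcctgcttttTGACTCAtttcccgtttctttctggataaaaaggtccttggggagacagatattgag
Fscn1: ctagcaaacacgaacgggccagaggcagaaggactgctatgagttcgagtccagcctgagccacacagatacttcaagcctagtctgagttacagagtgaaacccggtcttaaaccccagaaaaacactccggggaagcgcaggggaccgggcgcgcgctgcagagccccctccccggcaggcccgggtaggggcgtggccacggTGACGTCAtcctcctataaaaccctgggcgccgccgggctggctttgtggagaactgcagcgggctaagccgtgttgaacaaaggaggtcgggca
Xcr1: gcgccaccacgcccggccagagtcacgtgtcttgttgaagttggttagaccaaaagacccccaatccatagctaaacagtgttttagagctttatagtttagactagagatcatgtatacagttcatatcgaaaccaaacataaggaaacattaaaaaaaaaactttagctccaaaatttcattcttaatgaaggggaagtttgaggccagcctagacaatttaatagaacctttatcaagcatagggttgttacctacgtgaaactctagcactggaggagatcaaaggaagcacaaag

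The same window of Siglech held CACCTG 20 bases before the start. The letters GAAANNGAA, to which interferon regulatory factors bind, and GAGGAAGT, a PU.1 sequence, were in 0 of the 9 windows, against 8.56% and 3.2% of all windows. Both factors are known from dendritic cells, and the absence says only that these letters are not in these windows.

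The levels differed widely between members. In females the order was Sirpa, Siglech, Fscn1, Itgax, Flt3, Zbtb46, Xcr1, Cd209a, Batf3 and Cd207, with Sirpa at 45.3 FPKM and Cd207 at 1.89 FPKM. Because FPKM is per length, these levels can be set side by side across genes. The intervals of 5 of the 9 pairs of neighbours in this order overlapped in females, 4 in SryHi males and 5 in wildtype males. Flt3 and Zbtb46 were neighbours with overlapping intervals in all 3 libraries. Sirpa, Siglech and Fscn1 held the top places in this order in all 3 libraries. The intervals of Siglech and Fscn1 overlapped in females and in wildtype males but not in SryHi males, and those of Sirpa and Siglech overlapped in SryHi males alone.

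**Figure D1:**
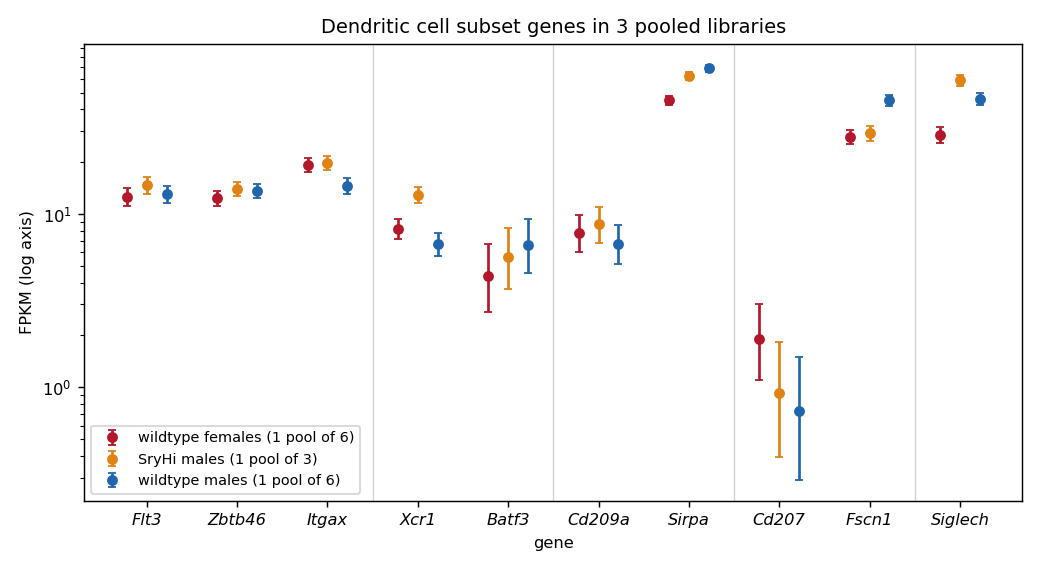
FPKM of each member (log axis) in the pooled libraries of wildtype females, SryHi males and wildtype males, with 95% Poisson counting intervals as bars. Flt3 and Zbtb46 are nearly level in the 3 libraries, Xcr1 is highest in SryHi males (12.9 FPKM), Fscn1 is highest in wildtype males (45.1 FPKM), and Cd207 lies between 0.725 and 1.89 FPKM with wide intervals.

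Flt3, the receptor of dendritic cell development, and Zbtb46, a marker of the conventional lineage, were nearly level. Flt3 (chr5:147330741-147400489, minus strand, GRCm38) was at 12.5 FPKM in females and 14.6 FPKM in SryHi males, against 12.9 FPKM in wildtype males. Its ratio over wildtype males was 0.971 in females (95% interval 0.821 to 1.15) and 1.13 in SryHi males (0.957 to 1.33), so both intervals included 1. An antisense gene, Gm26597, overlaps Flt3, and whether the counting used strand is not given in the sources used here. Zbtb46 (chr2:181387762-181459426, minus strand) was at 12.3 FPKM in females and 13.9 FPKM in SryHi males, against 13.6 FPKM in wildtype males. Its ratios were 0.908 (0.791 to 1.04) and 1.02 (0.894 to 1.17). Over the 3 libraries the highest level was 1.16 times the lowest for Flt3 and 1.13 times for Zbtb46, the narrowest spans of the 10 members. A small nuclear RNA gene, Gm22708, lies inside Zbtb46.

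Itgax, the CD11c chain, was higher than in wildtype males in both other libraries. Itgax (chr7:128129547-128150657, plus strand) was at 19.1 FPKM in females and 19.6 FPKM in SryHi males, against 14.5 FPKM in wildtype males. The ratio was 1.32 in females (1.15 to 1.52) and 1.35 in SryHi males (1.17 to 1.56), and both intervals lay above 1. Of the 50-base windows of its transcript, 9.61% also occur in Itgad, its neighbouring family member. Itgad was at 0.175 FPKM in females and 5.01 FPKM in SryHi males, against 0.533 FPKM in wildtype males, so reads from shared stretches could have been assigned to either gene. In a whole node, fewer cells of a type and less RNA per cell cannot be told apart.

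Xcr1 had the largest ratio of the members measured in SryHi males, and Batf3, the other cDC1 gene, did not move with it. Xcr1 (chr9:123852315-123862029, minus strand) was at 8.16 FPKM in females and 12.9 FPKM in SryHi males, against 6.68 FPKM in wildtype males. In SryHi males the ratio was 1.93 (1.60 to 2.32), from about 325 against 183 fragments. By the ratio of FPKM + 1, 2.63% of 8982 protein-coding genes whose mean reached 5 FPKM lay higher than Xcr1. The female ratio of FPKM was 1.22, and its interval, 1.0001 to 1.496, reached down almost to 1. Of the 50-base windows of the Xcr1 transcript, 1.63% occur in other genes.

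Batf3 (chr1:191097847-191108945, plus strand) was at 4.36 FPKM in females and 5.63 FPKM in SryHi males, against 6.62 FPKM in wildtype males. Wildtype males were highest here and lowest for Xcr1, but the Batf3 transcript is short and its values rest on about 21, 26 and 33 fragments. The ratios were 0.659 in females (0.363 to 1.17) and 0.850 in SryHi males (0.488 to 1.47), so no difference in Batf3 was detectable at this depth. Within a library the ratio of Xcr1 to Batf3 was 1.87 in females and 2.29 in SryHi males, against 1.01 in wildtype males. Such a ratio does not depend on how a library was scaled.

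The cDC2 genes Cd209a and Sirpa differed in their pattern. Cd209a (chr8:3743397-3748984, minus strand), the mouse lectin most often used for these cells, was at 7.78 FPKM in females and 8.69 FPKM in SryHi males, against 6.73 FPKM in wildtype males. Its ratios were 1.16 (0.808 to 1.65) and 1.29 (0.907 to 1.84), and both intervals included 1. Sirpa (chr2:129592835-129632228, plus strand), an inhibitory receptor for CD47 that macrophages and monocytes also carry, was at 45.3 FPKM in females and 62.2 FPKM in SryHi males, against 69.1 FPKM in wildtype males. It was lower in females, with a ratio of 0.656 (0.607 to 0.708), and 0.901 in SryHi males (0.839 to 0.968), and the counting intervals of its 3 levels did not overlap. Markers of macrophages and monocytes moved with Sirpa in females: of the 10 of 11 measured, 9 had ratios below 1, their median log2 ratio was -0.61, and all 11 summed to 827 FPKM in females and 974 FPKM in SryHi males, against 1086 FPKM in wildtype males. In SryHi males 5 were above and 5 below 1, with a median log2 ratio of 0.06. Lyz2 alone made up most of each sum, at 586 FPKM in females and 522 FPKM in SryHi males, against 648 FPKM in wildtype males. The order of the sums therefore rests largely on 1 gene. None of the 11 was at 0 in any library. Their part in the Sirpa values was not tested.

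Cd207 and Fscn1, associated with Langerhans cells and with mature migratory cells, had opposite signs in females. Cd207 (chr6:83671215-83677857, minus strand) was at 1.89 FPKM in females and 0.920 FPKM in SryHi males, against 0.725 FPKM in wildtype males. These values rest on about 17, 8 and 7 fragments. The female ratio of 2.60 had an interval from 1.03 to 7.43, and the SryHi ratio of 1.27 one from 0.402 to 4.11. Of the keratinocyte genes, which mark epidermis, Krt1 was listed at 0 in all 3 libraries, and Krt5 and Krt14 were at or below 0.125 FPKM. Krt10 was at 1.33 FPKM in females and 2.50 FPKM in SryHi males, against 0.613 FPKM in wildtype males, and so above Cd207 in SryHi males. The part of epidermis in the Cd207 values was not tested.

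Fscn1 (chr5:142960343-142973185, plus strand) was at 27.7 FPKM in females and 29.1 FPKM in SryHi males, against 45.1 FPKM in wildtype males. The ratio was 0.614 in females (0.545 to 0.692) and 0.646 in SryHi males (0.573 to 0.728), so the wildtype male library was above both others by more than counting error. Of 8916 protein-coding genes whose mean reached 5 FPKM, 3.05% had a lower ratio of FPKM + 1 in females, and in SryHi males 6.56% of 8982 did. Fascin is also made by some stromal and endothelial cells. Of the 6 fibroblastic stroma markers 5 were measured, with median log2 ratios of -0.61 in females and -0.31 in SryHi males, and the 6 summed to 196 FPKM in females and 269.8 FPKM in SryHi males, against 284 FPKM in wildtype males. The 4 lymphatic endothelial markers summed to 30.5 FPKM in females and 63.9 FPKM in SryHi males, against 67.4 FPKM in wildtype males, with Ccl21a listed at 0 in all 3. The 3 measured had median log2 ratios of -0.92 in females and -0.14 in SryHi males. The 4 blood endothelial markers summed to 143 FPKM in females and 192 FPKM in SryHi males, against 152 FPKM in wildtype males. Pecam1 alone made up most of each sum, at 110 FPKM in females and 120 FPKM in SryHi males, against 102 FPKM in wildtype males. The median log2 ratio of the 4 was -0.37 in females, with 1 above 0 and 3 below, and 0.37 in SryHi males. The part of these cell types in the Fscn1 values was not tested.

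Siglech, a marker of plasmacytoid dendritic cells, differed between all 3 libraries by more than counting error. Siglech (chr7:55768178-55778925, plus strand) was at 28.5 FPKM in females and 58.8 FPKM in SryHi males, against 46.2 FPKM in wildtype males, and no counting intervals overlapped. The ratio was 0.617 in females (0.541 to 0.704) and 1.27 in SryHi males (1.14 to 1.42). By the ratio of FPKM + 1, 3.14% of the protein-coding genes lay lower than Siglech in females, and 21.6% lay higher in SryHi males. The median log2 ratio of the macrophage and monocyte markers was -0.61 in females and 0.06 in SryHi males. That of the further plasmacytoid genes listed below was -0.12 and 0.01. The part of other cells in the Siglech values was not tested. Females and SryHi males stand in separate tables, but the wildtype male FPKM was the same in both for 48806 of 48808 entries, so their values can be set side by side. Females over SryHi males, the ratio was 0.486 for Siglech (0.427 to 0.552), 0.634 for Xcr1 (0.532 to 0.755) and 0.728 for Sirpa (0.672 to 0.789). For the other 7 members this interval included 1, with ratios of 0.951 for Fscn1 and 0.975 for Itgax.

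**Figure D2:**
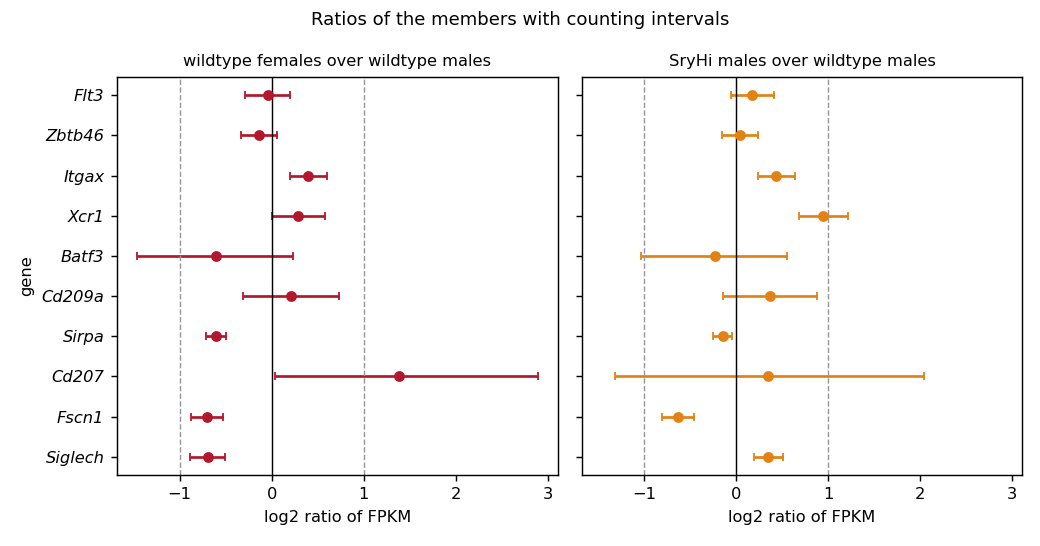
Log2 ratio of FPKM of each member, in wildtype females over wildtype males and in SryHi males over wildtype males, with 95% counting intervals as bars and dashed lines at 2-fold. Fscn1 lies below 0 in both panels, Itgax above 0 in both, Siglech below 0 in females and above 0 in SryHi males, and Cd207 and Batf3 have the widest intervals.

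To count members, the log2 ratio of FPKM + 1 was taken wherever the pair's mean reached 1 FPKM. The added 1 draws the ratios of low genes towards 0. By this measure 0 of the 10 members differed by at least 2-fold between females and wildtype males, where 5.6% of all 15523 genes measured did (2.83% higher and 2.77% lower). Of the 9 members measured between SryHi and wildtype males, again 0 did, against 7.84% of 15566 genes (3.7% higher and 4.14% lower). Cd207 had a mean below 1 FPKM in that pair and was not counted. At 1.5-fold there were 4 members in females, Cd207 higher and Fscn1, Siglech and Sirpa lower, against 15.7% of all genes (7.88% higher and 7.87% lower). In SryHi males there were 2, Xcr1 higher and Fscn1 lower, against 22.7% (12% higher and 10.7% lower).

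The members' median log2 ratio was -0.08 in females, where that of all genes was 0.01, with 4 members above 0 and 6 below. In SryHi males it was 0.16, where that of all genes was 0.04, with 6 above and 3 below. The members did not move as a block in either comparison. In females the counting interval lay above 1 for Itgax, Xcr1 and Cd207 and below 1 for Fscn1, Siglech and Sirpa. Those of Xcr1 (from 1.0001) and Cd207 (from 1.03) reached down almost to 1, and the depth behind them is approximate. In SryHi males the counting interval lay above 1 for Xcr1, Itgax and Siglech and below 1 for Fscn1 and Sirpa. The share of all genes whose interval excluded 1 was not calculated, so these counts have no background beside them. The SryHi library was the highest of the 3 for 6 members and the lowest for 0, the female library was the highest for 1 (Cd207) and the lowest for 6, and the wildtype male library was the highest for 3 (Batf3, Fscn1 and Sirpa) and the lowest for 4. Over 8971 protein-coding genes whose mean over the 3 libraries reached 5 FPKM, the SryHi library was the highest for 41.8% and the lowest for 34.1%, the female library for 29.4% and 34.4%, and the wildtype male library for 28.8% and 31.4%.

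Ratios between members inside a library do not depend on how that library was scaled. Leaving out Cd207, 36 pairs of members could be formed, and the ratio changed by at least 2-fold in 3 pairs between females and wildtype males and in 4 between SryHi and wildtype males. Over all pairs of protein-coding genes whose mean reached 5 FPKM, 6.07% and 12.6% did, so the members' counts were near that background. The member pairs that changed in females all held Itgax. Those in SryHi males, apart from Fscn1 to Itgax, all held Xcr1, so the pairs are not independent of each other. The pair that changed most in females was Fscn1 to Itgax, at 1.45 in females and 1.49 in SryHi males, against 3.11 in wildtype males. In SryHi males it was Xcr1 to Fscn1, at 0.442 in SryHi males and 0.295 in females, against 0.148 in wildtype males. The ratio of Siglech to Itgax was 1.49 in females and 3.00 in SryHi males, against 3.19 in wildtype males. Flt3 to Zbtb46 stayed at 1.02 in females and 1.05 in SryHi males, against 0.952 in wildtype males.

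Beyond the members, 66 further genes of dendritic cells in 5 lists were followed. Of the 65 measured between females and wildtype males, 0 differed by 2-fold, where 5.6% of all genes did, with a median log2 ratio of -0.10. Of the 64 measured between SryHi and wildtype males, 3 were at least 2-fold higher (Cadm1, Ccl17 and Klk1) and 1 at least 2-fold lower (Wdfy4), with a median of 0.20. Over all genes 7.84% differed by 2-fold in that comparison, so the share in these lists was near the background. The median log2 ratio of all genes was 0.01 in females and 0.04 in SryHi males. The shares of all genes with a ratio above 1, or with an interval excluding 1, were not calculated. The lists were chosen with earlier results of these data known, and no test was run on them.

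The cDC1 list held 11 genes, with a median log2 ratio of -0.18 in females (3 above 0, 8 below) and 0.25 in SryHi males (7 above, 4 below). Clec9a, a receptor for dead cells that is close to restricted to cDC1, followed Xcr1: it was at 17.2 FPKM in females and 20.4 FPKM in SryHi males, against 12.3 FPKM in wildtype males, with ratios of 1.40 (1.03 to 1.90) and 1.66 (1.23 to 2.24). Cadm1, an adhesion molecule of the same cells, was at 5.61 FPKM in females and 18.8 FPKM in SryHi males, against 8.01 FPKM in wildtype males. The SryHi ratio of Cadm1 was 2.35 (1.85 to 2.99), and the female ratio was 0.700 (0.511 to 0.954). Wdfy4, needed by cDC1 for cross-presentation and also made by B cells, was at 134 FPKM in females and 70.9 FPKM in SryHi males, against 145 FPKM in wildtype males. Irf8, the lineage factor of cDC1 that B cells also express, was at 100.3 FPKM in females and 108 FPKM in SryHi males, against 126 FPKM in wildtype males. Naaa, a lysosomal amidase, was at 37.9 FPKM in females and 65.2 FPKM in SryHi males, against 54.8 FPKM in wildtype males. The list therefore held genes above and below 1 in both comparisons.

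Of the 13 cDC2 genes, with medians of -0.11 in females and 0.21 in SryHi males, the lectin Mgl2 had the largest female ratio. Mgl2 was at 6.53 FPKM in females and 6.33 FPKM in SryHi males, against 3.30 FPKM in wildtype males, with ratios of 1.98 (1.27 to 3.14) and 1.92 (1.22 to 3.06). Ccr2, a chemokine receptor of cDC2 and of monocytes, was at 31.3 FPKM in females and 58.5 FPKM in SryHi males, against 33.2 FPKM in wildtype males. Zeb2, a transcription factor of many myeloid cells, was at 111 FPKM in females and 231 FPKM in SryHi males, against 144 FPKM in wildtype males. Both had intervals above 1 in SryHi males, 1.64 to 1.90 for Ccr2 and 1.56 to 1.65 for Zeb2. Dtx1, a Notch target that B cells also make, was at 22.9 FPKM in females and 10.7 FPKM in SryHi males, against 21.8 FPKM in wildtype males. Clec4a2, an inhibitory lectin, was at 5.22 FPKM in females and 6.30 FPKM in SryHi males, against 7.99 FPKM in wildtype males. Notch2 was at 42.4 FPKM in females and 39.6 FPKM in SryHi males, against 45.5 FPKM in wildtype males.

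Of the 21 mature migratory genes, 16 had ratios above 1 in females, with a median log2 ratio of 0.11, and 14 in SryHi males, with a median of 0.25. The counting interval lay above 1 for 7 and below 1 for 2 in females, and for 10 and 4 in SryHi males. The same shares over all genes were not calculated, so nothing about these genes as a set is read from the counts. Fscn1, which maturing cells switch on with these genes, lay below 1 in both. Marcksl1, another gene of the cytoskeleton, was, like Fscn1, highest in wildtype males: it was at 24.1 FPKM in females and 26.0 FPKM in SryHi males, against 41.1 FPKM in wildtype males. Ccl17, a chemokine for T cells, was at 8.36 FPKM in females and 10.5 FPKM in SryHi males, against 4.60 FPKM in wildtype males, and its interval lay above 1 only in SryHi males (1.20 to 4.56, and 0.928 to 3.70 in females). Ccr7, the receptor that guides migrating dendritic cells and naive T cells into the node, was at 44.5 FPKM in females and 22.4 FPKM in SryHi males, against 41.2 FPKM in wildtype males. The Ccr7 ratio in SryHi males was 0.543 (0.465 to 0.633), and the T cell markers, with a median log2 ratio of -0.46, were lower there too. Their part in the Ccr7 values was not tested. Birc3, an inhibitor of cell death, was at 199 FPKM in females and 203 FPKM in SryHi males, against 170.3 FPKM in wildtype males. Tmem123 was at 185 FPKM in females and 339 FPKM in SryHi males, against 203 FPKM in wildtype males.

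The 5 Langerhans cell genes did not share the female excess of Cd207. Their median log2 ratio was -0.11 in females, with 1 above 0 and 4 below, and 0.22 in SryHi males, where 4 were measured. Epcam, an adhesion molecule of epithelia and of Langerhans cells, was at 1.72 FPKM in females and 1.65 FPKM in SryHi males, against 2.81 FPKM in wildtype males. Cldn1, a tight junction protein, was at 10.1 FPKM in females and 15.9 FPKM in SryHi males, against 8.73 FPKM in wildtype males. Ly75, the endocytic receptor DEC-205, was at 9.21 FPKM in females and 11.6 FPKM in SryHi males, against 10.03 FPKM in wildtype males. Cdh1 was at 0.959 FPKM in females and 1.66 FPKM in SryHi males, against 1.23 FPKM in wildtype males.

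Of the 16 plasmacytoid genes, 15 were measured in each pair, and their median log2 ratio was -0.12 in females (5 above 0, 10 below) and 0.01 in SryHi males (8 above, 7 below). Irf7, the factor that drives type I interferon, was lowest in females like Siglech: it was at 11.4 FPKM in females and 26.0 FPKM in SryHi males, against 22.6 FPKM in wildtype males. Its female ratio was 0.502 (0.404 to 0.621). The SryHi ratio of Irf7 was 1.15 (0.967 to 1.36), an interval that included 1, unlike that of Siglech. Tcf4, the lineage factor that B cells share, was at 100.2 FPKM in females and 130.1 FPKM in SryHi males, against 109 FPKM in wildtype males. Siglech was likewise lowest in females and highest in SryHi males. So were Runx2, at 6.06 FPKM in females and 15.1 FPKM in SryHi males, against 10.2 FPKM in wildtype males, and Tlr9, at 20.8, 32.0 and 25.6 FPKM. Other genes of the list were not. Spib, a factor shared with B cells, was at 63.7 FPKM in females and 63.0 FPKM in SryHi males, against 91.8 FPKM in wildtype males. The chemokine receptor Ccr9 was at 10.5 FPKM in females and 7.15 FPKM in SryHi males, against 7.12 FPKM in wildtype males. Runx2, Tlr9, Spib and Ccr9 were chosen after their values were seen. The counting interval lay above 1 for 1 gene of the list and below 1 for 8 in females, and for 5 and 4 in SryHi males, again without the same share over all genes. Klk1, a kallikrein, had the largest SryHi ratio of the list, 3.79 (1.76 to 9.05), at 1.91 FPKM in females and 5.66 FPKM in SryHi males, against 1.49 FPKM in wildtype males. Ly6d, also made by B cells, was at 173 FPKM in females and 128 FPKM in SryHi males, against 189 FPKM in wildtype males. Smim5, a small membrane protein, was at 1.502 FPKM in females and 2.87 FPKM in SryHi males, against 3.32 FPKM in wildtype males.

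**Figure D3:**
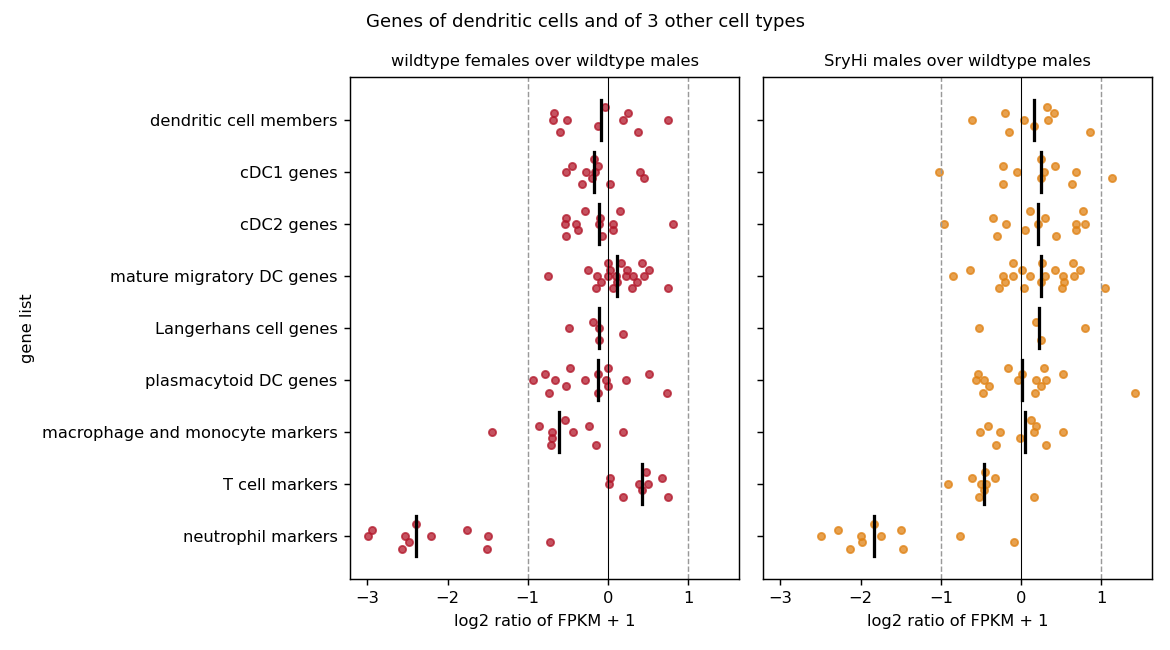
Log2 ratio of FPKM + 1 of each gene (points) by list, for wildtype females over wildtype males and SryHi males over wildtype males, with the list's median as a black bar and dashed lines at 2-fold. The dendritic lists lie around 0 with medians between -0.18 and 0.25, the macrophage list is at -0.61 in females and 0.06 in SryHi males, and the neutrophil list lies far to the left in both (-2.39 and -1.83).

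Of the 12 of 13 ligands and partners measured, the counting interval lay above 1 for 0 and below 1 for 6 in females, and above 1 for 4 and below 1 for 3 in SryHi males. The same share over all genes was not calculated. Flt3l, the FLT3 ligand, was at 70.2 FPKM in females and 90.9 FPKM in SryHi males, against 68.8 FPKM in wildtype males, with ratios of 1.02 (0.912 to 1.14) and 1.32 (1.19 to 1.47). Xcl1, the XCR1 ligand, was at 4.79 FPKM in females and 2.94 FPKM in SryHi males, against 2.80 FPKM in wildtype males, with both intervals including 1. Cd47, the ligand of SIRPα, was at 122 FPKM in females and 138 FPKM in SryHi males, against 144 FPKM in wildtype males. The phosphatases that SIRPα recruits gave ratios of 0.994 in females and 0.982 in SryHi males for Ptpn6, and 0.762 in females and 1.02 in SryHi males for Ptpn11. Itgb2, the chain that pairs with CD11c, was at 47.6 FPKM in females and 62.5 FPKM in SryHi males, against 55.2 FPKM in wildtype males. Tyrobp, the DAP12 adaptor through which SIGLEC-H signals, was level, at 112 FPKM in females and 109 FPKM in SryHi males, against 117 FPKM in wildtype males.

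By log2 of FPKM + 1, 1 of the 12 was at least 2-fold apart in females and 0 in SryHi males, against 5.6% and 7.84% of all genes, a share near the background with so few genes. The 1 was Jun, a partner of BATF3. Jun was at 4.42 FPKM in females and 7.49 FPKM in SryHi males, against 12.3 FPKM in wildtype males, with ratios of 0.360 (0.278 to 0.463) and 0.609 (0.490 to 0.755). Jun is also an immediate early gene. Junb was at 28.5 FPKM in females and 21.1 FPKM in SryHi males, against 37.7 FPKM in wildtype males. Batf, which can stand in for Batf3, was at 7.10 FPKM in females and 10.5 FPKM in SryHi males, against 6.20 FPKM in wildtype males, and Batf2 at 1.51 FPKM in females and 2.14 FPKM in SryHi males, against 1.10 FPKM in wildtype males. Csf2ra, a receptor chain for the growth factor GM-CSF, which supports several of these subsets, was at 17.2 FPKM in females and 37.1 FPKM in SryHi males, against 18.5 FPKM in wildtype males. Its FPKM ratio in SryHi males was 2.01 (1.70 to 2.39), and 0.97 as log2 of FPKM + 1. Csf2rb was at 27.4 FPKM in females and 38.7 FPKM in SryHi males, against 42.6 FPKM in wildtype males. Csf2 itself was below 1.5 FPKM in every library.

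The families of 4 members held genes that differed more than the members did. Cd209b, a lectin of marginal sinus macrophages, was far above Cd209a, at 126 FPKM in females and 256 FPKM in SryHi males, against 208 FPKM in wildtype males. The female ratio was 0.606 for Cd209b (0.568 to 0.645) and 0.404 for Cd209f (0.228 to 0.689), while for Cd209c, Cd209d, Cd209e and Cd209g the intervals included 1 in both comparisons, as for Cd209a. The activating relatives of Sirpa differed in both directions. Sirpb1a was at 1.57 FPKM in females and 8.31 FPKM in SryHi males, against 4.54 FPKM in wildtype males. Sirpb1c was at 0.943 FPKM in females and 11.2 FPKM in SryHi males, against 3.01 FPKM in wildtype males, a SryHi ratio of 3.71 (2.41 to 5.88). Sirpb1b stayed below 1 FPKM, and these near-identical genes can share reads, so their split is uncertain.

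Among the integrin chains Itgad stood apart, with a SryHi ratio of 9.39 (5.27 to 18.2). Itgam was at 12.9 FPKM in females and 20.5 FPKM in SryHi males, against 19.0 FPKM in wildtype males, and Itgal at 40.0 FPKM in females and 37.1 FPKM in SryHi males, against 43.1 FPKM in wildtype males, so Itgax was the only one of the 4 α chains higher in females than in wildtype males. Among the Siglecs, Cd33 had the order of Siglech, at 21.9 FPKM in females and 45.6 FPKM in SryHi males, against 33.6 FPKM in wildtype males. Siglece, of myeloid cells, had it too, at 0.774 FPKM in females and 5.49 FPKM in SryHi males, against 1.94 FPKM in wildtype males. The macrophage gene Siglec1 was highest in wildtype males, at 20.6 FPKM in females and 26.3 FPKM in SryHi males, against 38.1 FPKM in wildtype males. The B cell genes Cd22 and Siglecg had ratios between 0.872 and 1.12, and Siglecf, of eosinophils, was below 0.5 FPKM in every library.

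**Figure D4:**
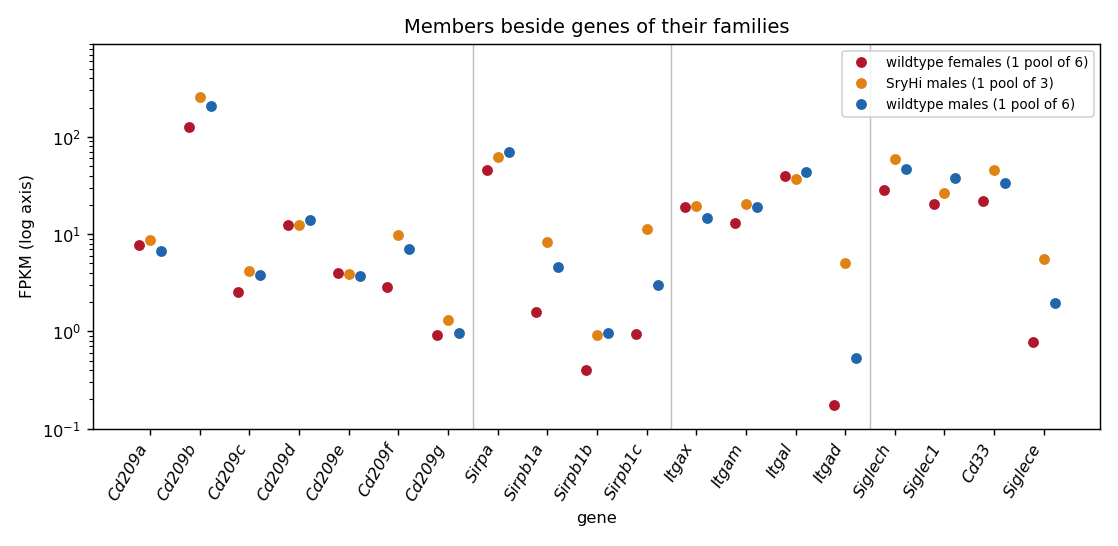
FPKM (log axis) of Cd209a, Sirpa, Itgax and Siglech, each the leftmost gene between the vertical lines, beside listed genes of its family (the B cell and eosinophil Siglecs not drawn), in wildtype females, SryHi males and wildtype males. Itgad (0.175, 5.01 and 0.533 FPKM), Sirpb1c (0.943, 11.2 and 3.01 FPKM) and Siglece (0.774, 5.49 and 1.94 FPKM) are spread more widely than the members.

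Flt3 and its 4 relatives among the class III receptor tyrosine kinases all had ratios below 1 in females. Csf1r, the receptor of macrophages, was at 41.2 FPKM in females and 49.9 FPKM in SryHi males, against 60.1 FPKM in wildtype males, and Pdgfrb, of stromal cells, at 5.96 FPKM in females and 5.36 FPKM in SryHi males, against 9.90 FPKM in wildtype males. Kit had ratios of 0.855 in females and 1.06 in SryHi males, and Pdgfra 0.862 and 1.01. Fscn2 and Fscn3, the other fascins, were below 0.5 FPKM in every library.

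The genes whose pair of log2 ratios lay nearest to those of a member were looked for with Xcr1, the member with the largest ratio in SryHi males, among protein-coding genes whose mean reached 5 FPKM. Nearest to Xcr1 were Mef2c, Cd46 and Jak2, and 35 of 8970 genes lay within 0.1. Mef2c, a transcription factor, was at 209 FPKM in females and 317 FPKM in SryHi males, against 176 FPKM in wildtype males. With 3 libraries such likeness rests on 2 ratios that share the wildtype male library. For Cd207, which had the largest ratio in females, no likeness is given, because its levels are so low that the added 1 FPKM sets its ratios.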

How the data were processed

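Pooled RNA of whole popliteal lymphnodes was rRNA-depleted, made into stranded libraries (Kapa) and sequenced as paired reads of 50 bases. The authors aligned to mm10 with HiSat2 and Samtools and used Cufflinks and Cuffdiff, which gave the deposited FPKM per gene. Versions, and the use of strand in counting, are not given in the sources used here. The 2 deposited tables also hold the authors' fold changes, test statistics and p and q values, which were not used. Entries of a symbol were summed.

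The measure was log2 of the ratio of FPKM + 1, females or SryHi males over wildtype males, wherever the pair's mean reached 1 FPKM. Genes were counted at 2-fold, the fold the study took as meaningful. Depth was estimated from 887, 922 and 879 genes with a single transcript of 1000 to 8000 nt, as the FPKM times length that 1 fragment makes. Fragments behind a value are FPKM times the main GENCODE M21 transcript (the longest APPRIS principal one) times depth. Levels carry exact Poisson intervals and ratios exact Clopper-Pearson intervals (95%), for counting error only. Entries matched a GENCODE gene ID, without version, for 48048 of 48808. The calculation was tested on simulated data. Python 3.11.15, numpy 2.4.6, pandas 2.3.3, scipy 1.17.1 and matplotlib 3.10.9 were used.

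Named are all 10 members, the listed partners and family genes, and of every other dendritic list the 2 genes with the highest mean FPKM and the 2 with the largest ratio in each comparison. Of the lists of other cell types, those that touch a member are named by their sums and medians, and keratinocyte genes singly. Lyz2 and Pecam1 are also named, as the highest of their lists. The members and lists were chosen with earlier results of these data known. Alternatives were the pseudocount, the filter on low values, the scaling, the handling of repeated symbols and the fold. Promoter windows are RefSeq's, of GRCm38.p6, the assembly of mm10.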

Additional observations from a re-analysis of the deposited data

How the results depend on the processing

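The number of members at least 2-fold apart between females and wildtype males was 1 (Cd207) with a pseudocount of 0.1 FPKM and 4 at 1.5-fold, against 0. Between SryHi and wildtype males it was 2 at 1.5-fold and 8 with values rescaled to TPM over all entries. That rescaling divides by a sum which short antigen receptor and small RNA entries decide: the 3 highest entries made up 75.7% of all FPKM in females and 45.3% in SryHi males, against 78.9% in wildtype males. It moved the median of all genes to -0.19 in females and 1.37 in SryHi males, and that of the members to -0.30 and 1.53. Relative to all genes the members' medians were then -0.11 and 0.16, against -0.09 and 0.12 as reported. Under it the SryHi log2 ratios of Fscn1 and Sirpa reversed, to 0.97 and 1.46, of which Fscn1 lay below the shifted median and Sirpa above it. Dividing by a sum changes the plain ratios of all genes alike. The new place of Sirpa against the median therefore came with the added 1 and the filter. Both were kept unchanged and weigh more on the smaller TPM values. Of all genes called, 39.3% in females and 98.9% in SryHi males were then higher, against 50.6% and 47.2%.

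Of 169 values of single members under the alternatives, 158 stayed within their error, 9 moved and 2 reversed, all 11 of these under TPM. Many of the 158 could not have changed. A filter does not alter the ratio of a member that is kept, which fixed 19 values without a filter and 18 at 5 FPKM. Each member had 1 entry, which fixed the 19 under the highest entry of a symbol. Keeping every status, with 19 values, repeated the main calculation. A pseudocount of 5 FPKM put 37.5% of the SryHi calls of all genes higher. No entry had a status that would have removed it. With 1 library per group, none was left out in turn. No paired analysis was possible because each group had 1 library. Depth limits Cd207 and Batf3 most, whose values rest on 7 to 33 fragments, and differences between mice are not covered by any interval.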
